A study of Mus musculus with 8 samples.

Results

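The clustered protocadherin genes were examined as the stretch of mouse chromosome 18 from 36.9 to 37.86 Mb (mm10), which holds the alpha, beta and gamma clusters. RefSeq lists 34614 protein-coding and lncRNA genes on the autosomes, X and Y. In this stretch it lists 58 genes with the symbols Pcdha, Pcdhac, Pcdhb, Pcdhga, Pcdhgb or Pcdhgc and a number, among them Pcdhgb8, annotated as a transcribed pseudogene. The alpha cluster (36930285 to 37188897) has 14 of them, the beta cluster (37264998 to 37521419) 22 and the gamma cluster (37661775 to 37841873) 22. Within the interval 1698 of the 5676562 site records of the series were found, and each had at most 5 reads, so that the upper limit of 100 reads per site removed 0 of them.

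Clustered protocadherins are cell adhesion proteins of the cadherin family, best known for giving single neurons a surface identity. In the alpha and gamma clusters each gene has its own promoter and large variable exon, which is spliced to constant exons shared at the far end of the cluster, whereas beta genes are single exons. In neurons most variable promoters are chosen at random, a choice that involves the DNA-binding protein CTCF, cohesin and DNA methylation, while the C-type genes (Pcdhac1, Pcdhac2, Pcdhgc3, Pcdhgc4 and Pcdhgc5) are used more evenly.

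The cells were mouse embryonic fibroblasts (MEFs), either on day 1 of reprogramming with Etv2, an ETS-family transcription factor, or as controls on day 0. Accessibility was read by NOMe-seq, in which the enzyme M.CviPI methylates cytosines that follow a guanine where the DNA is not covered, and bisulfite sequencing reads that methylation. The groups were day 1 treated with M.CviPI, day 0 treated, day 1 untreated and day 0 untreated, with 2 libraries in each, made from 250000 cells per sample. How Etv2 was delivered is not stated in the labels. Nor do they tie the libraries of a pair to different cultures, so p-values measure the spread between these libraries, which may be technical. The files hold no RNA, and the fibroblast label was therefore not checked against expressed markers.

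Base context and depth set what can be said about these genes. All 66210 site records that fell in RefSeq promoters of other chromosomes were cytosines in the context GCH (G, C, then A, C or T), with 0 in GCG. Sites of that context do not read CpG methylation, for which protocadherin promoters are known. The context of the sites inside the interval was not checked, since no sequence of chromosome 18 was used. Coverage was thin: libraries had from 1693307 to 3577740 calls (1 call is 1 read over 1 site) over the genome, but 647 and 604 in the interval on day 1 treated, 567 and 701 on day 0 treated, 815 and 760 on day 1 untreated, and 544 and 579 on day 0 untreated. These calls lay in 47 to 71 patches per library, a patch being a run of sites at most 200 bp apart, with a median of 2 or 3 sites.

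Neighbouring sites of a patch share reads, so intervals given for calls cover counting error only and are too narrow. Of the sites with exactly 3 reads, between 49.8% and 61.3% in the 4 treated libraries and between 1.75% and 6.78% in the 4 untreated ones had both methylated and unmethylated reads. Of 1675 distinct positions in the interval, 23 were read in 2 libraries and none in more. Of 199 blocks of 1 kb with treated calls, 20 had calls on both days and 0 in all 4 treated libraries. Comparisons between days therefore set different pieces of the clusters against each other. Beta genes and neighbouring variable exons also resemble each other in sequence, and the placing of reads that match several copies is not given in the sources used here, so calls of near-identical copies are uncertain.

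The enzyme reached all 3 clusters. Over the whole interval 24.4% and 28.8% of calls were methylated on day 1 treated and 30.5% and 29.1% on day 0 treated, against 0.982% and 0.658% on day 1 untreated and 1.65% and 2.25% on day 0 untreated. No treated library overlapped an untreated one, and treated libraries averaged 28.2% ± 2.63 and untreated ones 1.38% ± 0.708 (SD, n = 4 each). The groups did not overlap in any of the 3 clusters either, as in 99.4% of 7819 genomic rows (the clusters and 240 kb bins described further on). The difference was 26.8 percentage points (exact two-sided permutation p = 0.0286, the lowest that 4 against 4 allows). Differences within the clusters were 25.04 points for alpha, 28.4 for beta and 27.4 for gamma, each with the same exact permutation p and the same p after Benjamini-Hochberg adjustment over these 4 comparisons.

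Cluster by cluster the treated levels lay between 22% and 36.2%. The alpha cluster had 22% and 26.3% on day 1 treated, and 32.1% and 26.0% on day 0 treated. The beta cluster had 26.5% and 31.8% on day 1 treated, and 32.6% and 27.8% on day 0 treated. In both clusters the libraries of the days overlapped. The gamma cluster had 25.0% and 24.1% on day 1 treated, and 28.0% and 36.2% on day 0 treated, with no overlap. Gamma was the only cluster of 3 in which both day 1 libraries lay below both day 0 libraries, as they did in 11.5% of the 7819 rows. The day 0 treated levels of gamma include 48 calls at the gene Pcdhgc3, 34 of them methylated. Day 1 treated had 0 calls at that gene. In gamma DNA more than 1 kb from a gene start the days overlapped, with 22.2% and 27.5% on day 1 treated. Day 0 treated had 25.1% and 27.1% there.

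**Figure D1:**
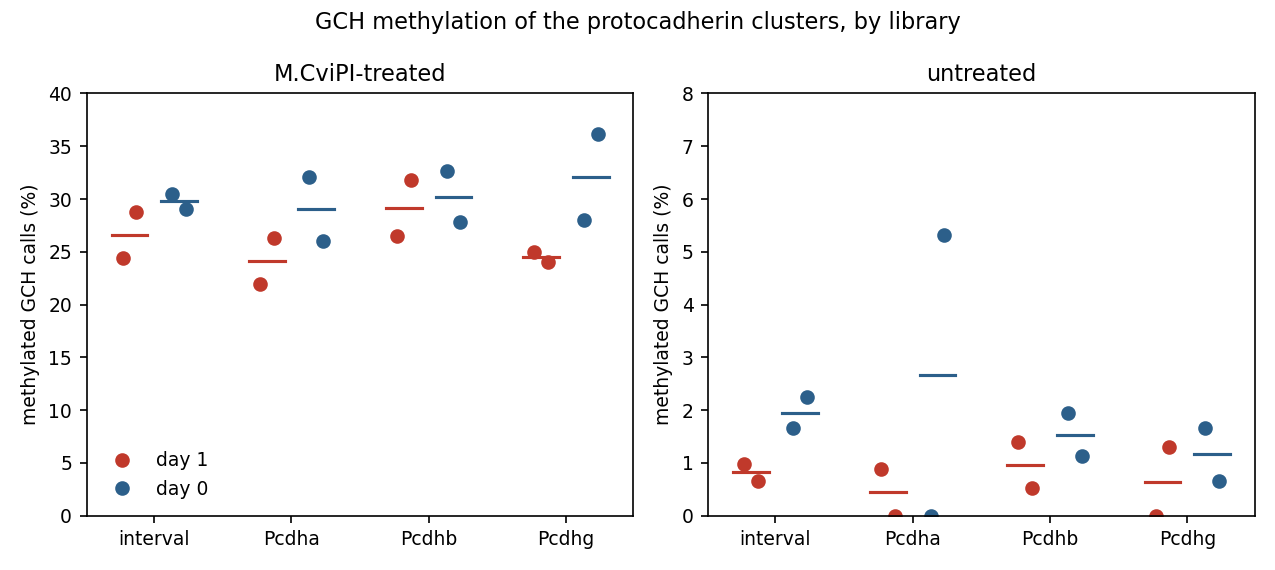
GCH methylation (percent of calls, vertical axis; the scales of the panels differ) of the whole interval and of the alpha (Pcdha), beta (Pcdhb) and gamma (Pcdhg) clusters in M.CviPI-treated (left) and untreated (right) libraries. Each point is 1 library and each line the mean of 2. Every treated point lies above every untreated one. The treated gamma points of day 1 (25.0% and 24.1%) lie below those of day 0 (28.0% and 36.2%). Those of day 0 include Pcdhgc3, a gene without treated calls on day 1.

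The comparison of the days asks whether accessibility of the clusters differed once Etv2 reprogramming had begun. The treated level of the interval averaged 26.6% ± 3.10 on day 1 and 29.8% ± 0.997 on day 0 (SD, n = 2 each), a difference of -3.19 points (exact permutation p = 0.33, the lowest that 2 against 2 allows). The difference was -4.93 points for alpha, -1.02 for beta and -7.55 for gamma (exact permutation p from 0.33 to 0.667, and 0.667 for each after adjustment over 4 comparisons). The day 0 levels of gamma and of the interval include the 48 treated calls at Pcdhgc3, 34 of them methylated. That gene had 0 treated calls on day 1. The differences of gamma and of the interval were not recomputed without it. Without replicate 1 of day 1 treated the difference of the interval was -0.998 points, and that of beta turned to 1.64; beta also turned, to 1.40, without replicate 1 of day 0 treated. Without replicate 1 of day 0 treated the difference was -1.89 points for alpha and -11.6 for gamma, and without replicate 2 of day 0 treated it was -7.97 for alpha and -3.48 for gamma.

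To set the clusters beside stretches of like size, methylated and unmethylated calls were fitted with edgeR's quasi-likelihood test over 7819 rows, the 3 clusters and 240 kb bins of the autosomes and X with at least 20 calls in every library. Between the treated days edgeR called 0 of the 3 clusters and 0.0128% of all rows. At an unadjusted p under 0.05 it had 0 of the 3 and 3.47% of all rows, and limma called 0 of the 3 and 0% of all rows. The fitted change of gamma was -0.51 on the log2 odds scale, with an approximate SE of 0.41 and an edgeR adjusted p of 0.999, and those of alpha and beta were -0.34 and -0.03, beside a median of 0.10 over all rows. In points, the bins had a median change of 1.48, and 5.99% of them lay below gamma, 11.9% below alpha and 31.1% below beta. The gamma row includes Pcdhgc3, which had treated calls on day 0 only.

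**Figure D2:**
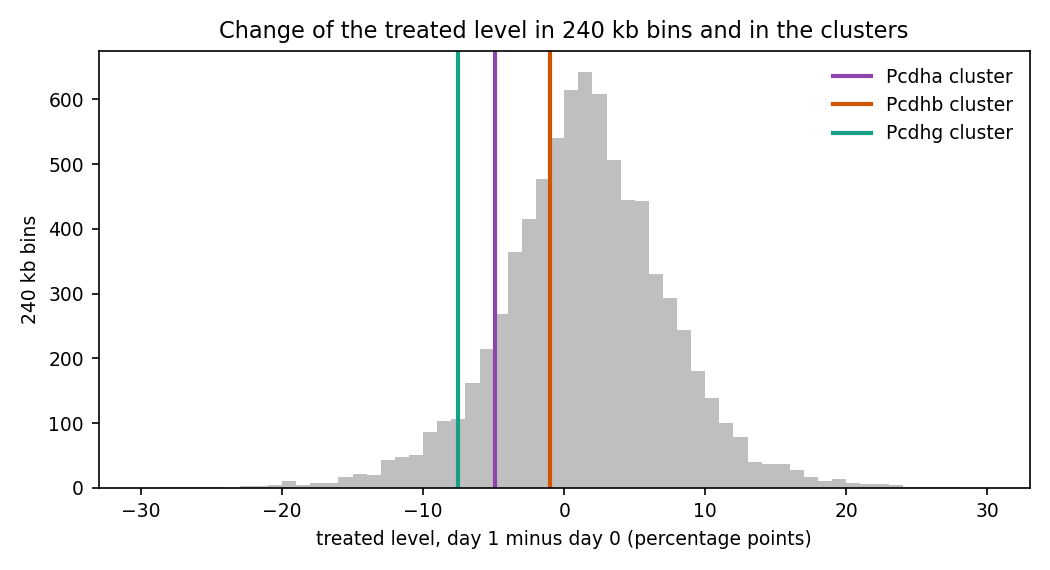
Change of the treated level, day 1 minus day 0 (percentage points, horizontal axis), in 240 kb bins (grey histogram, number of bins on the vertical axis) and in the alpha, beta and gamma clusters (vertical lines). All 3 lines lie left of the median bin (1.48), and inside the spread of the bins, of which 5% were below -8.35 and 5% above 10.96.

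Levels without the enzyme were low and lower on day 1, in the interval as in the rest of the autosomes. The interval had 0.820% ± 0.229 on day 1 untreated and 1.95% ± 0.418 on day 0 untreated (SD, n = 2 each), a difference of -1.13 points (exact permutation p = 0.33, the lowest possible). In the rest of the autosomes the untreated level was 1.095% on day 1 and 2.34% on day 0. Between the untreated days edgeR called 0 of the 3 clusters and 8.02% of all rows. At an unadjusted p under 0.05 it had 1 of the 3 (alpha) and 25.6% of all rows, and limma called 0 of the 3 and 34% of all rows. The fitted changes were -2.76 for alpha, -0.50 for beta and -0.93 for gamma on the log2 odds scale, beside a median of -1.19 over all rows. Alpha rested on 1 library: replicate 2 of day 0 untreated had 10 methylated of 188 calls, at 10 sites in 7 patches, while replicate 1 of day 0 had 0 of 156, and without replicate 2 the fitted change was 2.97.

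The change between the days net of the untreated libraries was -2.06 points for the interval (exact permutation of days within treated and untreated libraries, p = 0.667; the lowest possible is 0.0556, n = 2 per group). It was -2.72 for alpha, -0.448 for beta and -7.04 for gamma, the last being -11.1 without replicate 1 and -2.96 without replicate 2 of day 0 treated. On the log2 odds scale the fitted net changes had the opposite sign, at 2.43, 0.47 and 0.42 for alpha, beta and gamma. EdgeR called 0 of the 3 and 6.14% of all rows, with 0 of the 3 and 25% of all rows at an unadjusted p under 0.05. Limma called 0 of the 3 and 0.0256% of all rows. The median net change of all rows in edgeR was 1.31. For the enzyme itself edgeR called all 3 (adjusted p from 6.41e-31 to 8.01e-20), as it did 100% of all rows. The limma adjusted p of the 3 clusters ran from 9.26e-08 to 5.42e-06.

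The starts of the variable exons and single-exon genes were compared with the DNA between them, because promoters lie there. The DNA between is all DNA of the clusters more than 1 kb from a start. It therefore includes the later part of the beta genes and of longer variable exons. Within 1 kb on each side of the 58 starts, 28.9% and 21.3% of calls were methylated on day 1 treated, and 36.9% and 35.0% on day 0 treated. The DNA between, in the same clusters, had 22.9% and 30.1% on day 1 treated, and 28.0% and 28.1% on day 0 treated. Starts were thus above the DNA between in 3 of 4 treated libraries, by 6.01, 8.95 and 6.86 points, while the difference was -8.76 points in replicate 2 of day 1. The 6.86 points of replicate 2 of day 0 rested on Pcdhgc3. Without that gene the starts of that library were at 21.6%, below its DNA between (28.1%). In untreated libraries the starts had 0 methylated of 328 calls, which allows a level of up to 0.915% (3 calls of the total, the limit used for every level of 0 here), and the DNA between had 26 of 1853 (1.40%).

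The excess of starts over the DNA between averaged 3.26 points ± 8.11 in treated and -1.48 ± 1.04 in untreated libraries (SD, n = 4 each; exact permutation p = 0.257). Without replicate 2 of day 1 treated the difference was 8.75 points in place of 4.75 (exact permutation p = 0.0286, n = 3 and 4). The excess averaged -1.37 ± 10.4 points on day 1 treated and 7.90 ± 1.48 on day 0 treated, a difference of -9.28 (exact permutation p = 0.33, the lowest possible, n = 2 each), which was -16.7 without replicate 1 and -1.90 without replicate 2 of day 1 treated. A single gene, Pcdhgc3, carried much of both values: without it, an alternative chosen after the values were seen, the treated excess over untreated was 1.05 points in place of 4.75, and the change between days -1.88. With Pcdhgc3 kept and 0.5 kb on each side of the starts, these values were 15.4 and -28.6 points, and with 2 kb 1.55 and -2.44. Within 0.5 kb Pcdhgc3 itself was at 78.8%, with treated calls on day 0 only. With whole beta genes, or the first 2.5 kb of the other genes, and 1 kb on each side, the values were 5.02 (exact permutation p = 0.371, n = 4 each) and -12.7.

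**Figure D3:**
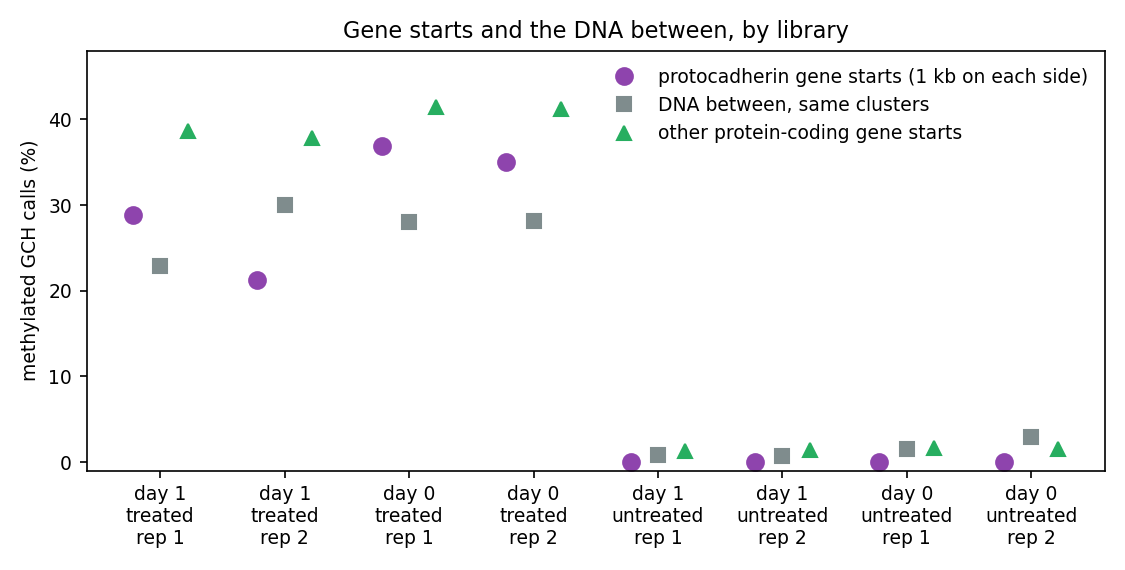
GCH methylation (percent of calls, vertical axis) in each of the 8 libraries (horizontal axis) for protocadherin gene starts with 1 kb on each side (circles), the DNA between in the same clusters (squares) and the starts of other protein-coding genes (triangles). Among treated libraries the circles (21.3% to 36.9%) lie below the triangles (37.8% to 41.4%) in all 4; in untreated libraries the circles are at 0.

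Within 1 kb, protocadherin starts were lower than the starts of other genes in every treated library. Treated calls within 1 kb were available for 31 of 58 protocadherin genes (53.4%) and for 66.4% of 16457 other protein-coding genes. The starts of those other genes had 38.6% and 37.8% on day 1 treated and 41.4% and 41.2% on day 0 treated. Protocadherin starts differed from them by -9.74 and -16.5 points on day 1 and by -4.44 and -6.24 points on day 0, a mean of -9.24 ± 5.33 (SD, n = 4; exact two-sided sign-flip permutation p = 0.12, the lowest that 4 libraries allow). This comparison was added after the other values were seen. Without Pcdhgc3 it was -12.9 points. Leaving out that gene, which was at 70.8%, could only lower the protocadherin starts, and the other genes were not trimmed. With Pcdhgc3 kept and 0.5 kb on each side it was -1.90 (exact permutation p = 1). Within 0.5 kb that gene was at 78.8%, and the narrower window was not run without it. Over the whole interval the treated level differed from the rest of the autosomes (30.4% on day 1 and 29.1% on day 0) by -5.99 and -1.57 points on day 1 and by 1.36 and 0.0169 points on day 0 (exact sign-flip permutation p = 0.5, n = 4).

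In the core of the promoter, from 250 bp before to 50 bp after the start, 105 treated calls of 9 protocadherin genes were available. The level there was 33.3% (21 calls) and 15.2% (33 calls) on day 1 treated, and 20.8% (24 calls) and 92.6% (27 calls) on day 0 treated. Other protein-coding genes had 50.3% and 51.8% on day 1 and 56.4% and 57.0% on day 0. All 27 core calls of the library at 92.6% came from Pcdhgc3. With all 9 genes the core had 42 methylated of 105 treated calls (40%). Without Pcdhgc3, left out after the values were seen, it had 17 of 78 (21.8%, exact Clopper-Pearson 95% interval 13.2 to 32.6). Leaving out that gene, the highest of the 9, could only lower the core level, and the other protein-coding genes were not trimmed. Untreated libraries had 0 of 36 core calls methylated.

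Pcdhgc3 (37806410 to 37841873), a C-type gene of the gamma cluster that is also used in many tissues outside the nervous system, had the most treated calls of any member, 48, all on day 0. Upstream of its start, from 230 to 110 bp before it, replicate 2 of day 0 treated had 25 methylated of 27 calls over 9 sites, or 92.6% (interval 75.7 to 99.1). In that library 13.5% of 713 other genes with at least 9 core calls were higher, and their median was 57.1%. Downstream, replicate 1 of day 0 treated had 1 of 6 calls at 173 to 211 bp and 8 of 15 calls (53.3%) from 657 to 739 bp after the start. Untreated libraries had 0 of 12 calls on day 1 and 0 of 42 on day 0 within 1 kb of this start, which allows up to 5.56% over both days. Day 1 treated libraries had 0 calls there, so its accessibility after Etv2 was not measured.

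**Figure D4:**
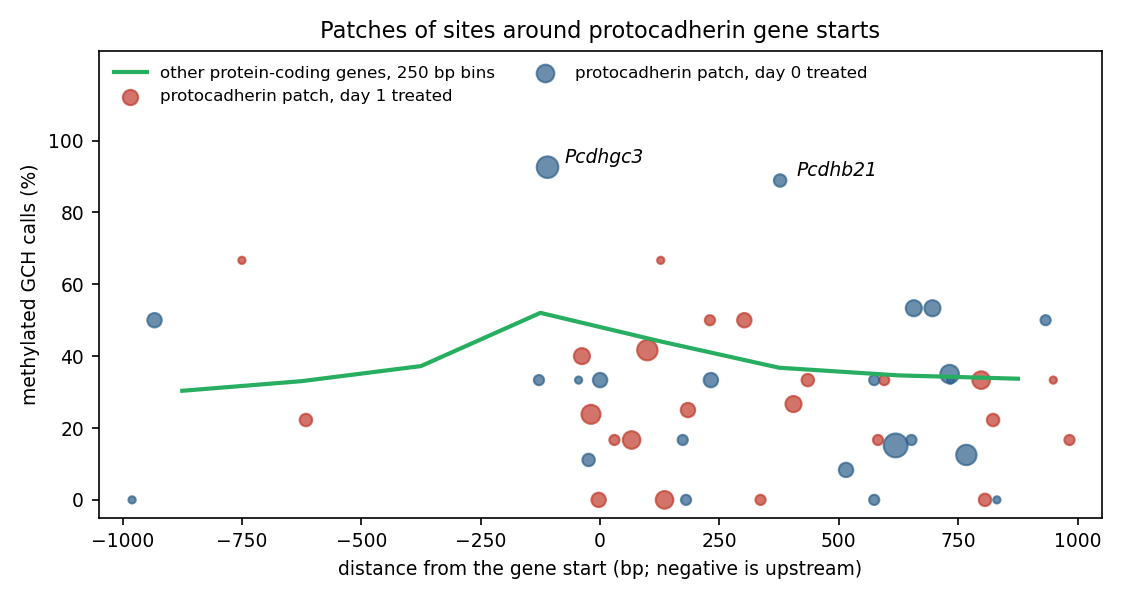
Treated GCH methylation (percent of calls, vertical axis) of single patches within 1 kb of a protocadherin gene start, against the distance of the nearest site of the patch from the start (bp, horizontal axis). Circle areas follow the number of calls, red is day 1 and blue day 0, and the green line is the level of other protein-coding genes in 250 bp bins (highest 52.0%); the Pcdhgc3 patch at 92.6% and the Pcdhb21 patch at 88.9% stand above the others, none of which exceeds 66.7%.

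The other C-type genes were lower. Pcdhgc4 had 12 of 30 calls methylated (40%), in both day 1 treated libraries, at 50% in a patch 302 bp after its start and 33.3% in one 798 bp after it. Pcdhgc5 had 0 of 9 calls in 1 library of day 1 treated and 10 of 21 (47.6%) in 1 library of day 0 treated. Within the core of its promoter the day 0 treated library had 0 of 3. Untreated libraries had 0 of 39 calls methylated at Pcdhgc5. Pcdhac2, the last variable gene of the alpha cluster, had 1 of 6 calls on day 1 treated and 5 of 33 (15.2%) on day 0 treated. Pcdhac1 had 31 untreated calls, 0 of them methylated, and 0 treated ones. Taken over both days, C-type starts had 62 of 147 treated calls methylated (42.2%), and 28 of 99 (28.3%) without Pcdhgc3. This grouping by type was made after the values were seen and was not tested.

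Alternate genes of the gamma cluster, whose promoters are among those chosen at random in neurons, had 39 of 174 treated calls methylated at their starts (22.4%). The libraries differed: 31.7% of 63 calls and 10.4% of 48 on day 1 treated, and 24.6% of 57 and 0 of 6 on day 0 treated. Pcdhgb1 and Pcdhgb6 each had 18 calls and none methylated on day 1. Pcdhgb1 had 0 of 18 over both libraries, in patches from 40 bp before to 340 bp after its start, which allows up to 16.7%. Pcdhgb6 had its 18 in 1 library, between 135 and 189 bp after its start. Pcdhgb6 had 3 of 6 calls on day 0 treated, near 933 bp. At the upper end Pcdhgb8, annotated as a transcribed pseudogene, had 10 of 24 calls (41.7%) on day 1 treated. Between these lay Pcdhga4, Pcdhga7 and Pcdhga8 with 4 of 12 calls each (33.3%), Pcdhgb2 with 2 of 9, Pcdhga9 with 4 of 21 and Pcdhgb7 with 1 of 9.

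Beta genes, each a complete single-exon adhesion receptor gene, had 49 of 158 treated calls methylated at their starts (31%), beside 29.3% in the DNA between them. By library this was 37.0% of 27 calls and 26.2% of 42 on day 1 treated, and 66.7% of 12 and 26.0% of 77 on day 0 treated. Pcdhb21 stood highest with 8 of 9 calls (88.9%, exact interval 51.8 to 99.7) in 1 patch of 3 sites, 377 to 406 bp after the start, in replicate 1 of day 0 treated. Pcdhb18 had the most calls, with 5 of 21 (23.8%) on day 1 treated just before the start and 7 of 20 (35.0%) on day 0 treated, 732 to 768 bp after it. Pcdhb7 with 3 of 24 and Pcdhb16 with 1 of 12 were the lowest of the 9 beta genes with at least 9 treated calls. Pcdhb2 had 6 of 12, Pcdhb5 6 of 15, Pcdhb3 3 of 9, Pcdhb1 4 of 15 and Pcdhb17 3 of 12.

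Alpha genes were barely sampled at their starts. Of 14 genes, 2 had treated calls there, Pcdhac2 and Pcdha1, the first gene of the cluster, with 3 of 18 methylated (16.7%) on day 1 treated from 66 to 117 bp after the start. Together the alpha starts had 9 of 57 treated calls methylated (15.8%, exact interval 7.48 to 27.9) and the DNA between them 119 of 437 (27.2%). The treated calls at alpha starts came from 3 patches, and the difference was not tested.

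Across the members, 23 of 58 genes had at least 9 treated calls within 1 kb of the start, and their levels ran from 0 to 88.9% with a median of 29.3%. Above 50% were 2 of the 23, Pcdhb21 and Pcdhgc3. A further 8 genes had 3 to 6 treated calls, 8 had untreated calls only, and 19 had none in any library: 6 alpha, 9 beta and 4 gamma genes. Of the 21 genes with untreated calls 0 had a methylated one. Treated calls were found on both days at 8 genes, on day 1 alone at 11 and on day 0 alone at 12, and 0 genes had them in more than 2 of the 4 treated libraries. For this reason no gene was compared between the days.

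**Figure D5:**
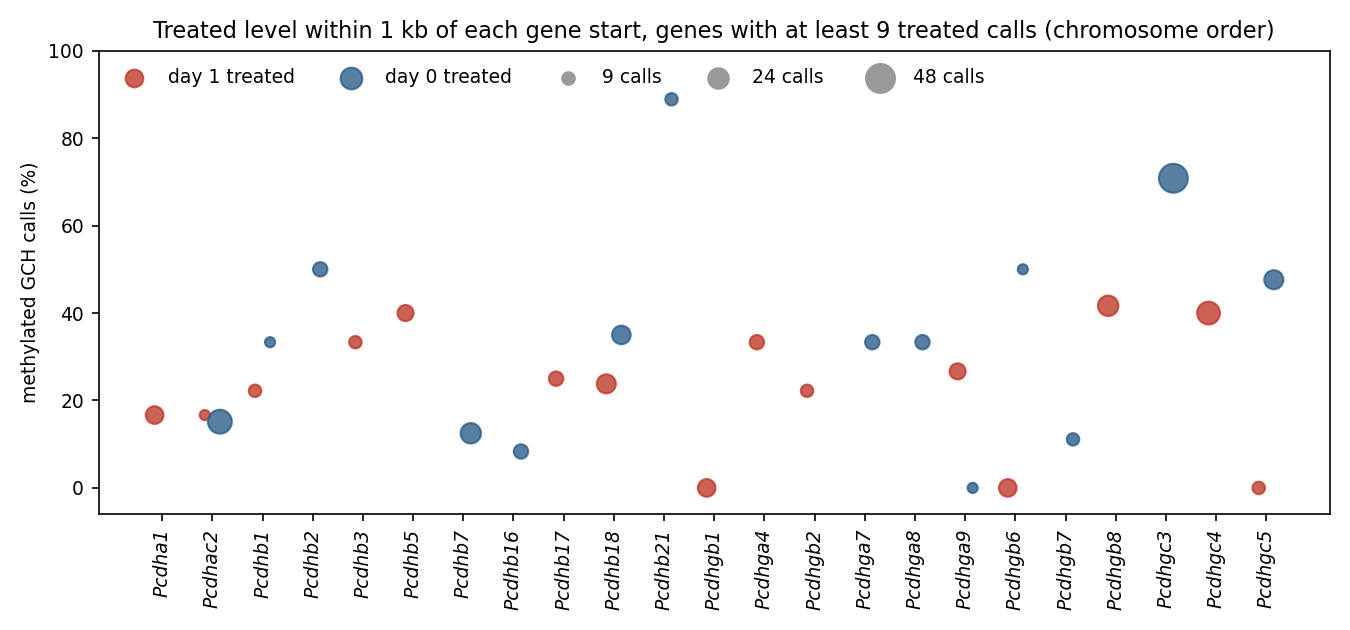
Treated GCH methylation (percent of calls, vertical axis) within 1 kb of the start of the 23 protocadherin genes with at least 9 treated calls, in chromosome order (horizontal axis). Red is day 1 and blue day 0, each pooled over 2 libraries, and circle areas follow the number of calls; Pcdhb21 (88.9%, 9 calls) and Pcdhgc3 (70.8%, 48 calls) are the highest, both on day 0 only.

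Away from the starts no treated patch of at least 9 calls reached the level of the Pcdhgc3 promoter. Of 126 treated patches with at least 9 calls in the interval, 10 were above 50%, and 2 above 80%, those of Pcdhgc3 and Pcdhb21. Among the others were patches 1917 to 2029 bp after the start of Pcdha5 (25 of 47 calls, 53.2%) and 1830 to 1886 bp after that of Pcdhb20 (16 of 24 calls, 66.7%), both in replicate 2 of day 0 treated. A further 16 had 0 methylated calls, among them a patch of 15 calls from 1111 to 1163 bp after the start of Pcdha1.

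Olfactory receptor genes, another clustered family and one that is silent in most tissues other than the nose, were set beside the protocadherins. On day 1 treated, protocadherin starts had 25.1% ± 5.37 and olfactory receptor starts 27.5% ± 2.23 (SD, n = 2 each). On day 0 treated, protocadherin starts had 36.0% ± 1.39, or 27.7% of pooled calls without Pcdhgc3, and olfactory receptor starts 26.8% ± 1.87 (SD, n = 2 each). The difference between the families was not tested. Non-clustered protocadherins, adhesion genes that stand alone in the genome, had treated calls at the starts of 5 of 11 genes, at 23 of 49 calls on day 1 and 29 of 73 on day 0. Of those with at least 9 treated calls, Pcdh10 had 48.3% of 58, Pcdh8 22.5% of 40 and Pcdh9 73.3% of 15.

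Genes whose products act on clustered protocadherin promoters were described as a list of 16, of which 11 had a start in the promoter table. Their starts had 50.7% ± 10.1 on day 1 treated and 32.8% ± 11.4 on day 0 treated (SD, n = 2 each), with 0.659% ± 0.199 and 1.32% ± 1.87 in the untreated libraries of those days. Each treated library had calls at 5 to 7 of the genes, and not at the same ones. The values of the days thus average partly different genes, and their difference was not tested. Of the 11 genes, 9 had at least 9 treated calls. The DNA methyltransferase genes Dnmt3a and Dnmt1 had 44.7% of 85 and 23.8% of 42 calls, and Smchd1, a repressor of these clusters in mouse, 67.9% of 81. The cohesin subunit genes Smc3 and Stag1 had 2.86% of 70 and 74.1% of 27, and Wapl, which releases cohesin from DNA, 51.1% of 45. Wiz had 40.5% of 42, the histone methyltransferase gene Setdb1 39.4% of 33 and Ctcf 88.9% of 9.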

How the data were processed

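Each file is 1 library. Coordinates are on mm10, per the submitters' processing notes. The authors deposited, without header, the methylated fraction of each cytosine, to 2 decimals, and the count of its reads, at least 3. These units were read from the values: fraction times count lay within that rounding of a whole number at 100% of sites. The sources used here name no aligner, caller or duplicate handling.

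Methylated calls are the rounded product, pooled over sites of at most 100 reads. RefSeq GRCm38.p6 gave genes without exons or strand; clustered protocadherin genes run towards higher coordinates, so the lower end was taken as the start. Starts of other genes, with strand, came from RefSeq promoters, which hold none of chromosome 18. Libraries were compared by exact permutation. Cluster rows and 240 kb bins were fitted with edgeR 4.0.16 (quasi-likelihood, library and group-by-methylation terms, Benjamini-Hochberg 0.05), with limma 3.58.1 on log2((methylated + 1)/(unmethylated + 1)) as an alternative (R 4.3.3, Python 3.11.15), and checked on simulated data. Other alternatives were site depth, site weighting, window size, windows over whole exons, call minimum, replicate block and leaving out each library. Values are given for genes with at least 9 treated calls within 1 kb of the start, at most 24 by number of calls. Pathway lists were non-clustered protocadherins, regulators, olfactory receptors and fibroblast, neuron and endothelial markers. Members and lists were chosen with earlier results of these data known.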

Additional observations from a re-analysis of the deposited data

How the results depend on the processing

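Of 315 differences that took another value under an alternative, 293 kept their sign and 22 did not. All 22 were comparisons between the days. The 293 include differences between treated and untreated levels, and fits without a library outside the comparison, which had little room to turn. The enzyme's effect on the interval held under every alternative, from 26.1 to 28.1 points without any 1 library. Permutations of the days could not pass the threshold in any setting (lowest p 0.33, or 0.0556 net), and edgeR and limma called 0 clusters between days in any of theirs. Site limits of 10 reads or none changed no protocadherin level; with all sites the mean difference of the interval from the rest of the autosomes was -3.13 points in place of -1.54. Over 1 kb blocks with calls on both days (20 treated, 21 untreated; added after seeing the data) the treated difference was -6.0 points for the interval, -19.5 for alpha, 21.1 for beta and -7.14 for gamma, and the untreated one 0.843, -1.28, 1.70 and 0. Over the 4 blocks with calls in each group the net change was 4.34 for the interval, -21.5 for alpha, 37.5 for beta and -5.23 for gamma. No block had calls in all 4 treated libraries. Leaving out 1 library at a time gave ranges in points of -5.39 to -0.998 for the treated interval, -3.69 to 1.64 for treated beta, -4.87 to 0.446 for untreated alpha, -1.16 to 0.133 for untreated gamma, -4.26 to 0.132 for the net interval, -5.76 to 0.326 for net alpha and -3.11 to 2.21 for net beta. On the log2 odds scale it gave -0.24 to 0.13 for treated beta, -5.02 to 2.97 for untreated alpha, -4.24 to 0.13 for untreated gamma, -3.30 to 4.69 for net alpha, -0.014 to 1.28 for net beta and -0.64 to 3.74 for net gamma. The excess at starts over the DNA between, treated against untreated, ran from 2.85 to 8.75 points, and passed the threshold (exact permutation p = 0.0286, n = 3 against 4) only without replicate 2 of day 1 treated. The count of rows called between the treated days was 1 in edgeR, 0 in limma, 0 with at most 10 reads per site and 0 to 2 without 1 library; between the untreated days 627, 2655 in limma and 360 to 473; net 480, 2 in limma and 54 to 393. The cause of these shifts was not tested. With the replicate number as a block edgeR called 1, 521, 321 and 7819 rows (treated, untreated, net, enzyme), and 0 clusters between days. Deviations of same-numbered libraries were uncorrelated (r from -0.00987 to 0.023 over 7819 rows). With so few calls per row, counting error could hide a shared deviation, so this cannot tell whether the numbers pair the samples. Depth was 3 to 5 reads per site in 8 to 27 patches per cluster and library. The simulated data covered rows of the whole genome, and what size of change could be shown in the clusters themselves was not tested.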

Other observations

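Other genes lie among the clusters. Diaph1, a formin gene just beyond the gamma cluster that reaches past the interval, had 17 of 51 treated calls methylated (33.3%) and 1 of 93 untreated ones. The lncRNA Gm29994 within the gamma cluster had 7 of 24 treated calls (29.2%) and 0 of 21 untreated ones. Taf7, a subunit of the general transcription factor TFIID, and Slc25a2, a mitochondrial carrier, stand between the beta and gamma clusters and had 0 calls within 1 kb in any library. The pseudogene Gm36858 in the alpha cluster had 17 of 69 treated calls (24.6%).

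Starts of cell type markers gave few calls. Fibroblast markers had 30 of 88 treated calls methylated on day 1 and 14 of 60 on day 0, neuron markers 76 of 197 and 12 of 30, and endothelial markers 5 of 26 and 9 of 40.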
